A study of Mus musculus with 18 samples.

Results

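The mitochondrial import machinery and its matrix chaperones were examined in visceral fat of mice with insulin-deficient diabetes, with and without bezafibrate (BEZ), a drug that activates peroxisome proliferator-activated receptors (PPARs). The genes were those with a symbol of the Tomm or Timm families, together with Hspa9, Hspd1, Hspe1, Grpel1, Grpel2, Pam16, Dnajc19, Chchd4, Gfer, Pmpca and Pmpcb. In all, 35 genes of the 19938 on the array met this rule. Each was read by 1 probe set, the one with the highest mean over all arrays, and 1 further probe set was left out because it carries the symbols of 2 genes, Timm10b among them. All animals were wildtype C57BL/6N males of 5 to 6 months, and each of the 18 arrays stood for 1 mouse. The STZ, BEZ group (n = 5) and the STZ, SD group (n = 6) had received streptozotocin (STZ), a toxin of the insulin-producing beta cells, and the Con, SD group (n = 7) citrate buffer alone. The labels give 65 mg/kg STZ on 5 days at 10 to 16 weeks of age, and 0.25 to 0.5% BEZ in the chow for 8 weeks from 2 weeks after STZ. SD denotes the standard diet without the drug. Values are log2 signals as the authors normalised them, and a difference of 1 on this scale is a doubling.

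Nearly all mitochondrial proteins are made in the cytosol and have to cross one or both mitochondrial membranes. The TOM complex of the outer membrane is the common entrance. Behind it, small TIM chaperones carry hydrophobic proteins through the intermembrane space to the TIM22 translocase, while the TIM23 translocase passes proteins with a cleavable presequence into the matrix. A motor built around the Hsp70 protein of the matrix, encoded by Hspa9, pulls these proteins in, the protease of Pmpca and Pmpcb removes the presequence, and the chaperonin of Hspd1 and Hspe1 folds the product. White fat has few mitochondria compared with brown fat, and PPAR agonists are known to raise mitochondrial genes in rodent adipose tissue.

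The arrays differed in markers of other organs, and these values stand beside all comparisons below. Adipoq, which encodes adiponectin, was high on all 18 arrays. It had 12.79 to 12.97 on the log2 scale in STZ, BEZ, 11.03 to 12.88 in STZ, SD and 11.93 to 12.69 in Con, SD. Other white adipocyte markers varied more, and Lep had 8.60 to 11.05 in STZ, BEZ, 6.22 to 11.46 in STZ, SD and 11.55 to 12.65 in Con, SD. Of 13 measured, 3 were called lower in STZ, SD vs. Con, SD (limma, adjusted p under 0.10), against 4.52% of all genes. The mean log2 signal of 13 measured white adipocyte markers was 12.14 to 12.42 in STZ, BEZ, 10.01 to 12.27 in STZ, SD and 11.83 to 12.49 in Con, SD. For 14 pancreas markers the mean reached 10.90, 9.34, 9.04 and 8.60 on the first 4 STZ, BEZ arrays, against 6.04 on the fifth. STZ, SD replicate 6 had a mean of 12.83, and the remaining 12 arrays had 5.89 to 6.26. STZ, BEZ replicate 5 instead had the highest mean of 10 liver markers (10.00), against 7.22 to 7.63 on the other STZ, BEZ arrays, 6.65 to 7.30 in STZ, SD and 7.23 to 9.15 in Con, SD. Epididymis and testis markers (17 measured) averaged at most 6.21 in STZ, BEZ, but up to 10.76 in STZ, SD and 11.05 in Con, SD. Skeletal muscle markers (10 measured) averaged 6.58 to 7.64 in STZ, BEZ, 6.54 to 6.79 in STZ, SD and 6.89 to 8.86 in Con, SD. Of these 10, 6 were called lower in STZ, SD vs. Con, SD and 3 in STZ, BEZ vs. Con, SD, against 4.52% and 1.38% of all genes. The mean of 8 lymphocyte markers was 9.16 on STZ, SD replicate 6 and 5.90 to 7.27 on the other arrays. In a piece of whole tissue, fewer cells of a type and less RNA per cell cannot be told apart. The labels name no cage or litter, so the tests measure the spread between these mice.

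**Figure D1:**
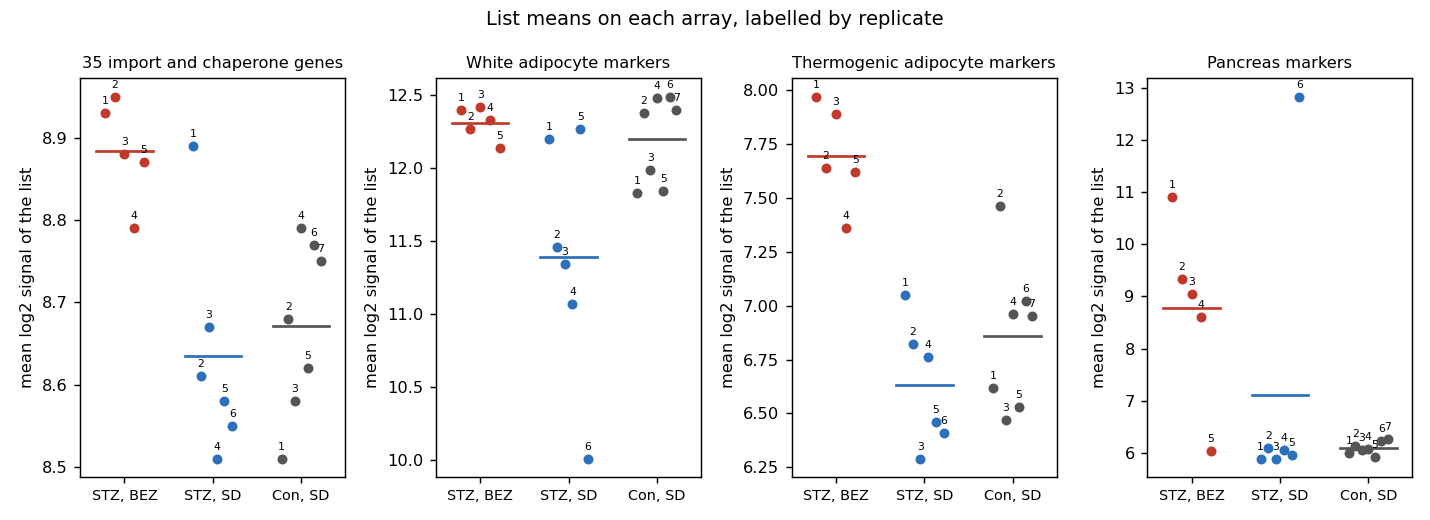
Mean log2 signal (y axis) of the 35 import and chaperone genes, 13 white adipocyte markers, 8 thermogenic adipocyte markers and 14 pancreas markers on each array (points, labelled by replicate; lines are group means) in STZ, BEZ, STZ, SD and Con, SD. The 35 genes averaged 8.79 to 8.95 in STZ, BEZ, and STZ, SD replicate 1 (8.89) stood above the other STZ, SD arrays (8.51 to 8.67), while pancreas markers were raised on 5 arrays.

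Import genes were mostly higher after BEZ. Between STZ, BEZ and STZ, SD, 32 of 35 genes had a difference above 0 (91.4%, against 52.1% of all 19938 genes). The median was 0.25 on the log2 scale, compared with 0.01 over all genes. The highest differences were those of Timm50, a receptor of the TIM23 translocase (log2 difference 0.63), Hspd1 (0.58) and Pmpcb (0.52). At an adjusted p under 0.10 (limma, Benjamini-Hochberg over all genes), 3 genes were called, namely Timm50, Grpel1 and Pam16, all of them higher. These were 8.57% of the 35 genes, against 0.707% of all genes called in either direction and 0.682% called higher, while 0.0251% were called lower. An unadjusted p under 0.05 was reached by 20 genes, all higher, or 57.1%, against 7.54% of all genes. Only Grpel1 and Pam16 had every STZ, BEZ array above every STZ, SD array, which holds for 1.04% of all genes. White adipocyte markers and thermogenic adipocyte markers, genes of mitochondria-rich brown and beige fat, were also higher in STZ, BEZ vs. STZ, SD. Their median log2 differences were 0.82 and 0.83 in this comparison, but -0.56 and -0.28 in STZ, SD vs. Con, SD, where the import genes had -0.09. Of 13 white adipocyte markers, 1 was called higher and 13 had an unadjusted p under 0.05 in limma, against 5 of 8 thermogenic markers. The mean log2 signal of the 8 measured thermogenic markers was 7.36 to 7.97 in STZ, BEZ, 6.29 to 7.05 in STZ, SD and 6.47 to 7.46 in Con, SD, so that STZ, BEZ and STZ, SD did not overlap. Of these 8 markers, 2 were called higher in STZ, BEZ vs. STZ, SD, 3 were called higher in STZ, BEZ vs. Con, SD and 3 were called lower in STZ, SD vs. Con, SD. Ucp1, the defining uncoupling protein of brown fat, had 5.28 to 6.31 in STZ, BEZ, 5.16 to 5.47 in STZ, SD and 5.04 to 7.24 in Con, SD. The part of these cells in the result was not tested.

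Relative to Con, SD, the STZ, BEZ mice also had higher signals. Here 30 of 35 genes were above 0 (85.7%, against 48.6% of all genes), with a median log2 difference of 0.14, compared with -0.01 over all genes. In total 10 genes were called, all higher: Timm44, Timm21, Grpel1, Hspa9, Hspe1, Timm9, Timm50, Hspd1, Tomm20 and Chchd4. They were 28.6% of the genes, against 5.95% of all genes called in either direction and 4.57% called higher, with 1.38% called lower. For 9 genes the STZ, BEZ arrays lay above all Con, SD arrays without overlap (Dnajc19, Grpel1, Hspa9, Hspd1, Hspe1, Timm21, Timm44, Timm50 and Tomm7), a pattern that 5.17% of all genes had. This comparison and the preceding one share the STZ, BEZ arrays.

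Without the drug, STZ was accompanied by calls in both directions. Of the 35 genes, 14 were above 0 in STZ, SD vs. Con, SD (40.0%, against 43.7% of all genes), and the median log2 difference was -0.09, compared with -0.03 over all genes. Timm21 and Timm44 were called higher and Pam16 and Timm17a lower, which made 4 genes or 11.4%, against 10.3% of all genes (5.82% higher and 4.52% lower). The share of called import genes was thus near that of the whole array. Pam16 was the only one of the 35 whose STZ, SD and Con, SD arrays did not overlap (0.487% of all genes had such a separation downwards).

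**Figure D2:**
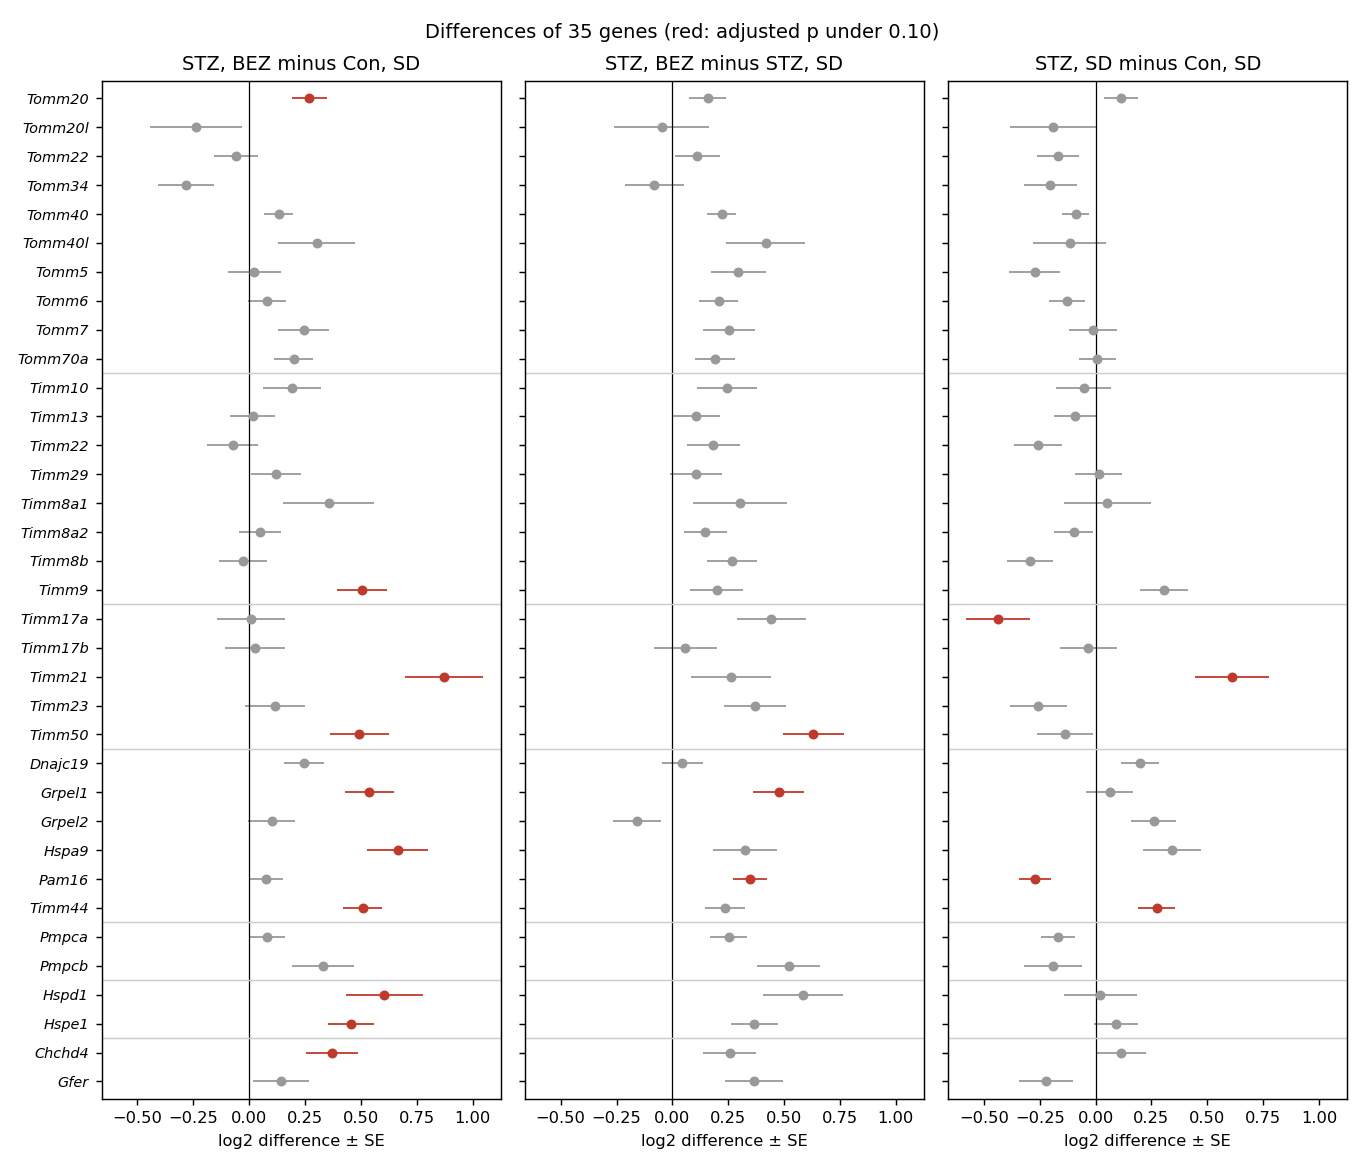
Log2 differences with standard errors (x axis) of the 35 genes (y axis) in STZ, BEZ minus Con, SD, STZ, BEZ minus STZ, SD and STZ, SD minus Con, SD, from a limma fit over 18 arrays; red marks an adjusted p under 0.10. Grey lines separate, from the top, TOM, small TIM and TIM22, TIM23, import motor, presequence protease, chaperonin and intermembrane space oxidation. In STZ, BEZ minus STZ, SD, 32 of 35 points lie right of 0, and in STZ, SD minus Con, SD 14 do.

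In the import motor, 3 of 6 genes were called higher in STZ, BEZ vs. Con, SD and 2 of 6 in STZ, BEZ vs. STZ, SD. Of all genes, 4.57% and 0.682% were called higher in these comparisons. Grpel1, the main nucleotide exchange factor that resets the matrix Hsp70, had log2 signals of 9.97, 9.97, 9.85, 9.85 and 10.02 in STZ, BEZ, against a lowest, median and highest of 9.22, 9.36 and 9.81 in STZ, SD and of 9.12, 9.33 and 9.63 in Con, SD. Every STZ, BEZ mouse was above every mouse of both other groups. The difference from STZ, SD was 0.48 ± 0.11 (SE), a 1.39-fold change, with an adjusted p of 0.093 in limma, and that from Con, SD was 0.54 ± 0.11 (adjusted p = 0.0146). The call against STZ, SD was lost in 14 of 18 fits that left out 1 array, at an adjusted p of up to 0.25, and was kept without Con, SD replicate 1 or 5 or STZ, SD replicate 1 or 5. STZ, SD and Con, SD differed by only 0.06 (adjusted p = 0.795).

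The promoter of Grpel1 is shown because the gene was called higher in both comparisons that involve BEZ. The window holds the 250 bases before the RefSeq start (GRCm38.p6, chr5:36464935-36465184, plus strand), and capitals mark the ETS core CCGGAAG, the CCAAT box and the NRF1 site GCATGCGC, each read on either strand.
Grpel1: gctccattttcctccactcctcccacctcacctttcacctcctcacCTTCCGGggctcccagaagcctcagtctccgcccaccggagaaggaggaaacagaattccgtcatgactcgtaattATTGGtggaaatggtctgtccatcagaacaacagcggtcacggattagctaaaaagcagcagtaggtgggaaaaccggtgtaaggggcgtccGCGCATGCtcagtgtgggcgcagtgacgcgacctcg

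Hspa9, which encodes the motor's Hsp70, had log2 signals of 11.53, 11.48, 11.24, 11.27 and 11.34 in STZ, BEZ. In STZ, SD the lowest, median and highest were 10.68, 10.99 and 11.50, and in Con, SD 10.38, 10.74 and 10.94. All STZ, BEZ values were above all Con, SD values, whereas the STZ, SD arrays spanned both ranges. The difference between STZ, BEZ and Con, SD was 0.67 ± 0.14 (SE), or 1.59-fold, with a limma adjusted p of 0.015. Those between STZ, BEZ and STZ, SD (0.32, adjusted p = 0.442) and between STZ, SD and Con, SD (0.34, adjusted p = 0.137) did not pass.

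Timm44, which tethers the Hsp70 to the translocase, had a stepwise order of group means. Its log2 signals were 8.30, 8.25, 8.11, 8.18 and 8.27 in STZ, BEZ, 7.80, 7.93 and 8.34 in STZ, SD (lowest, median, highest) and 7.54, 7.75 and 7.88 in Con, SD. It was higher in STZ, SD than in Con, SD (0.27 ± 0.08, SE; limma adjusted p = 0.0639) and in STZ, BEZ than in Con, SD (0.51 ± 0.09, adjusted p = 0.00864). The 0.24 between STZ, BEZ and STZ, SD was not called (adjusted p = 0.362). Without STZ, SD replicate 1 or 2, or Con, SD replicate 3, 5 or 7, the STZ, SD vs. Con, SD difference was no longer called, with an adjusted p of at most 0.129.

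Pam16, an inhibitory J-like partner in the motor, showed the opposite course in STZ, SD. It had log2 signals of 9.64, 9.62, 9.76, 9.69 and 9.63 in STZ, BEZ, of 9.04, 9.36 and 9.47 in STZ, SD (lowest, median, highest) and of 9.50, 9.58 and 9.69 in Con, SD. The STZ, SD arrays were below all others. Pam16 fell by 0.27 in STZ, SD vs. Con, SD (SE 0.07, limma adjusted p = 0.0337, 0.828-fold) and was 0.35 ± 0.08 higher in STZ, BEZ vs. STZ, SD (adjusted p = 0.0726, 1.27-fold). The call in STZ, BEZ vs. STZ, SD was lost without Con, SD replicate 2, STZ, SD replicate 2, 4 or 6 or any STZ, BEZ replicate, at an adjusted p of up to 0.205. Both comparisons share the STZ, SD arrays. STZ, BEZ and Con, SD differed by 0.08 (adjusted p = 0.642).

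The remaining motor genes, Grpel2 and Dnajc19, were not called in any comparison. Grpel2, the second exchange factor of mammals, had 8.67, 8.92, 8.51, 8.82 and 8.97 in STZ, BEZ, 8.69, 8.89 and 9.37 in STZ, SD (lowest, median, highest) and 8.54, 8.69 and 8.83 in Con, SD. The groups overlapped, and the difference between STZ, BEZ and STZ, SD was -0.16 (limma adjusted p = 0.685). Dnajc19, the J protein that activates the Hsp70, had 8.89 to 9.20 in STZ, BEZ, 8.65 to 9.14 in STZ, SD and 8.48 to 8.88 in Con, SD, with a difference of 0.24 between STZ, BEZ and Con, SD (adjusted p = 0.149).

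In the TIM23 translocase, Timm21 and Timm50 were the genes called in comparisons with BEZ. Timm21, the subunit that contacts the TOM complex and the respiratory chain, had log2 signals of 8.95, 9.27, 8.73, 8.71 and 9.14 in STZ, BEZ. In STZ, SD the lowest, median and highest were 8.13, 8.64 and 9.36, and in Con, SD 7.76, 8.14 and 8.38. Every STZ, BEZ array and 5 of 6 STZ, SD arrays were above all Con, SD arrays. The differences were 0.87 ± 0.17 (SE) for STZ, BEZ vs. Con, SD (limma adjusted p = 0.0134, 1.83-fold) and 0.61 ± 0.16 for STZ, SD vs. Con, SD (adjusted p = 0.0395, 1.53-fold), the largest among the 35 genes in both comparisons. STZ, BEZ and STZ, SD differed by 0.26 (adjusted p = 0.682).

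Timm50, which receives presequences on the outer face of the inner membrane, had 9.57, 9.72, 9.49, 9.70 and 9.57 in STZ, BEZ. The lowest, median and highest were 8.57, 8.99 and 9.53 in STZ, SD and 8.87, 9.13 and 9.35 in Con, SD. STZ, BEZ was above all Con, SD arrays and overlapped with STZ, SD only through STZ, SD replicate 1. It was 0.63 ± 0.14 (SE) higher than in STZ, SD (limma adjusted p = 0.0653, 1.55-fold) and 0.49 ± 0.13 higher than in Con, SD (adjusted p = 0.0511). The call against STZ, SD was lost without STZ, SD replicate 2, 3, 4 or 6 or any STZ, BEZ replicate, 9 of 18 fits, at an adjusted p of up to 0.19, and that against Con, SD without STZ, BEZ replicate 2, 4 or 5, at an adjusted p of up to 0.145.

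The window upstream of Timm50 is given for comparison with that of Grpel1, since these genes had large differences between STZ, BEZ and STZ, SD. Both windows hold a CCAAT box, and that of Grpel1 also holds the ETS core and the NRF1 site. It covers the 250 bases before the RefSeq start (GRCm38.p6, chr7:28312047-28312296, minus strand), with CCAAT boxes in capitals and no match of the other motifs.
Timm50: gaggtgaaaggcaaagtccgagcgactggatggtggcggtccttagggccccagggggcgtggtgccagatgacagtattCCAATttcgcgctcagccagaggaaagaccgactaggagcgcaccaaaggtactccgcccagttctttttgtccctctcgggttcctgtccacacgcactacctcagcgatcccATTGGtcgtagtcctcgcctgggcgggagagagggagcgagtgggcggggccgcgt

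**Figure D3:**
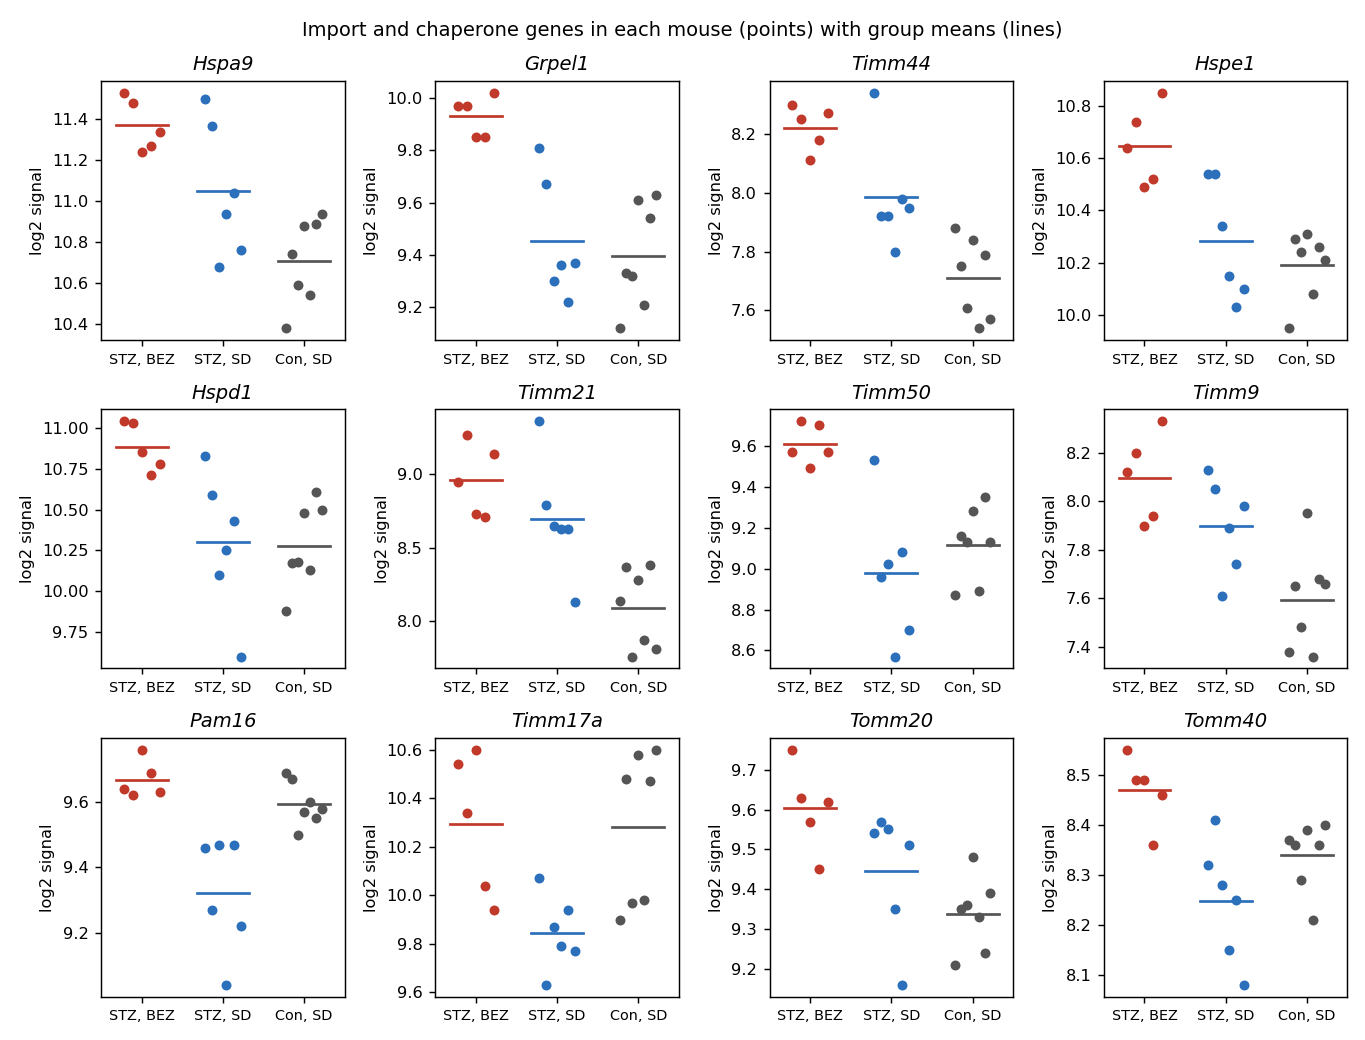
Log2 signal (y axis) of 12 import and chaperone genes in each mouse (points) with group means (lines) in STZ, BEZ, STZ, SD and Con, SD. Grpel1 is at 9.85 or above in STZ, BEZ and at 9.81 or below elsewhere, and Pam16 is at 9.47 or below in STZ, SD and at 9.50 or above elsewhere.

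Timm17a and Timm23 form the channel part of the translocase. Timm17a had 10.54, 10.34, 10.60, 10.04 and 9.94 in STZ, BEZ, 9.63, 9.83 and 10.07 in STZ, SD (lowest, median, highest) and 9.90, 10.47 and 10.60 in Con, SD. Both STZ, BEZ and Con, SD fell into higher and lower arrays, and STZ, SD overlapped only the lower ones. It fell by 0.44 in STZ, SD vs. Con, SD (SE 0.14, limma adjusted p = 0.0821), a call lost without Con, SD replicate 2, 4, 6 or 7, STZ, SD replicate 2 or 4, or STZ, BEZ replicate 2, at an adjusted p of at most 0.173. In STZ, BEZ vs. STZ, SD the difference of 0.44 did not pass (adjusted p = 0.305). Timm23 had 11.53, 11.42, 11.59, 11.27 and 11.11 in STZ, BEZ, 10.62, 11.08 and 11.36 in STZ, SD and 10.91, 11.39 and 11.48 in Con, SD, and was not called (0.37 in STZ, BEZ vs. STZ, SD, adjusted p = 0.341). Timm17b, the isoform of Timm17a, differed by no more than 0.06 in any comparison.

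Among small TIM chaperones and TIM22 subunits, Timm9 was the only gene of 8 called. The call was in STZ, BEZ vs. Con, SD, where 5.95% of all genes were called, so a single one is near that share. Timm9, which forms a hexamer with Timm10, had log2 signals of 8.12, 8.20, 7.90, 7.94 and 8.33 in STZ, BEZ. The lowest, median and highest were 7.61, 7.94 and 8.13 in STZ, SD and 7.36, 7.65 and 7.95 in Con, SD. STZ, BEZ and Con, SD overlapped through a single Con, SD array, replicate 4, and differed by 0.51 ± 0.11 (SE, limma adjusted p = 0.0236). The 0.31 between STZ, SD and Con, SD had an adjusted p of 0.104.

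Timm8b, of the other small TIM complex, had 10.53, 10.39, 10.43, 10.16 and 10.16 in STZ, BEZ, 9.77, 10.04 and 10.49 in STZ, SD (lowest, median, highest) and 10.22, 10.31 and 10.56 in Con, SD. The STZ, SD values were below the Con, SD range on 5 of 6 arrays, yet the difference of -0.29 narrowly missed the threshold (limma adjusted p = 0.102). All 8 genes of the group were above 0 in STZ, BEZ vs. STZ, SD, with log2 differences between 0.11 and 0.30. In STZ, BEZ vs. Con, SD they ranged from -0.07 (Timm22) to 0.51 (Timm9). Timm8a2 was dim, with 3.96 to 4.61 over all arrays, and was not called in any comparison.

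Of 10 TOM genes, 1 was called, in STZ, BEZ vs. Con, SD, where 5.95% of all genes were called. A single call in a list of this size is near that share. Tomm20, a presequence receptor, had 9.75, 9.63, 9.57, 9.45 and 9.62 in STZ, BEZ, 9.16, 9.53 and 9.57 in STZ, SD (lowest, median, highest) and 9.21, 9.35 and 9.48 in Con, SD. It was higher in STZ, BEZ than in Con, SD (0.27 ± 0.08, SE; limma adjusted p = 0.076), and the groups overlapped through STZ, BEZ replicate 4. This call was lost without any of 10 single arrays, namely Con, SD replicates 1, 2, 3, 5, 6 and 7 and STZ, BEZ replicates 1, 2, 3 and 5, with an adjusted p of up to 0.183.

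Tomm40, the pore of the complex, had 8.55, 8.49, 8.49, 8.36 and 8.46 in STZ, BEZ, 8.08, 8.27 and 8.41 in STZ, SD (lowest, median, highest) and 8.21, 8.36 and 8.40 in Con, SD. Its difference of 0.22 between STZ, BEZ and STZ, SD was not called (limma adjusted p = 0.21). Over all 10 TOM genes the log2 differences ran from -0.08 to 0.42 in STZ, BEZ vs. STZ, SD with 8 above 0, and from -0.28 to 0.30 in STZ, BEZ vs. Con, SD with 7 above 0. Tomm34, a cytosolic cochaperone, had the lowest difference in both, -0.08 and -0.28, and Tomm40l, the paralog of Tomm40, the highest, 0.42 and 0.30. Without BEZ, 8 of 10 were below 0 relative to Con, SD, and none was called by limma or by SAM, with Tomm5 alone at an unadjusted p under 0.05.

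The matrix chaperonin was higher after BEZ relative to controls. Hspd1, which encodes Hsp60, had log2 signals of 11.04, 11.03, 10.85, 10.71 and 10.78 in STZ, BEZ. In STZ, SD the lowest, median and highest were 9.60, 10.34 and 10.83, and in Con, SD 9.88, 10.18 and 10.61. STZ, BEZ did not overlap with Con, SD, and the difference was 0.60 ± 0.17 (SE, limma adjusted p = 0.065, 1.52-fold). That call was lost without Con, SD replicate 1, 2, 3 or 5 or STZ, BEZ replicate 1, 2 or 5, at an adjusted p of up to 0.177. The 0.58 between STZ, BEZ and STZ, SD had an adjusted p of 0.221. STZ, SD replicate 6, the array with the highest pancreas markers, had the lowest Hspd1 signal. The same array had the lowest mean of white adipocyte markers (10.01) and the highest of lymphocyte markers (9.16). The part of these features in its Hspd1 value was not tested.

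Hspe1, which encodes the Hsp10 lid of the same chaperonin, had 10.64, 10.74, 10.49, 10.52 and 10.85 in STZ, BEZ. The lowest, median and highest were 10.03, 10.25 and 10.54 in STZ, SD and 9.95, 10.24 and 10.31 in Con, SD. Again STZ, BEZ and Con, SD did not overlap, with a difference of 0.46 ± 0.10 (SE, limma adjusted p = 0.0223). STZ, BEZ vs. STZ, SD gave 0.37 (adjusted p = 0.187).

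Hspd1 and Hspe1 are divergent neighbours on chromosome 1 whose annotated spans overlap by 96 bases, and a heat shock element lies inside the annotated span of Hspd1 and upstream of the start that the promoter table gives each gene. The 30 bases around it are shown on the strand of each gene, beside the only other match among these genes, that of Timm9. The element was searched as 3 alternating units, GAA, TTC and GAA, with any 2 bases between units, on both strands in the 250 bases before each start, and capitals mark all matched bases. The windows are chr1:55088053-55088082 (minus strand for Hspd1, plus strand for Hspe1) and chr12:71136856-71136885 (minus strand), from RefSeq on GRCm38.p6.
Hspd1: ggggccTTCCGGAAGGTTCTAGAAcggacc
Hspe1: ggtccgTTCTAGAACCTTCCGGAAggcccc
Timm9: attaggctTTCTAGAAATTTCgacagattc

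The windows of Hspd1 and Hspe1 are the same bases read in opposite directions, with overlapping matches. Of 35 genes, 30 had a promoter window in the table, and those of Hspd1, Hspe1 and Timm9 (10.0%) held the heat shock element, compared with 0.514% of 27025 genes. The ETS core CCGGAAG was in 13 of 30 windows (43.3%, against 7.83%), and in Hspd1 and Hspe1 it overlaps the heat shock element. Other motifs of nuclear genes for mitochondria were rarer, the NRF1 site GCATGCGC in Grpel1 and Timm13 (6.67%, against 2.56%) and the ERR element TCAAGGTCA in Timm8b (3.33%, against 0.422%). The PPAR element, 2 copies of AGGTCA with any 1 base between them, and the C/EBP-ATF element TGATGCAAT matched in none of the 30 windows (0.0407% and 0.192% of all genes). The CCAAT box was in 9 of 30 windows, against 37.5% of all genes. These are letter matches in a short window and were not tested for binding or for a relation with the differences.

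Over the 18 arrays, Hspd1 and Hspe1 correlated with a Pearson r of 0.796 (permutation p = 8e-05) and a Spearman rho of 0.783 (permutation p = 0.00021), the only pair of genes tested this way. Without the 2 arrays farthest from the Hspd1 median, Con, SD replicate 1 and STZ, SD replicate 6, r was 0.768. Part of this spans the groups: within Con, SD r was 0.727 (rho 0.536, exact permutation p = 0.0605 and 0.236, n = 7) and within STZ, SD 0.623 (rho 0.60, exact permutation p = 0.185 and 0.242, n = 6), neither of which passed. As a description over 18 arrays that share the group differences, 550 genes were closer to Hspd1 than Hspe1 was, led by Atp5a1 (r = 0.973), Pmm1, Pdha1, Idh3b and Crat. The genes closest to Hspe1 were Malsu1 (r = 0.937), Grpel1 (0.918), Cox14, Mcrip2 and Mrps27. The probe sets used here for Hspd1 and Hspe1 have identifiers among genes of other chromosomes than chromosome 1. With the mean of the probe sets of each gene, the Pearson r of Hspd1 and Hspe1 was 0.814.

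The presequence protease was not called in any comparison. Pmpcb, the catalytic subunit of the protease, had 9.90, 9.99, 9.98, 9.74 and 9.77 in STZ, BEZ, 9.09, 9.28 and 9.76 in STZ, SD (lowest, median, highest) and 9.02, 9.58 and 9.87 in Con, SD. Its 0.52 in STZ, BEZ vs. STZ, SD was not called (limma adjusted p = 0.153). Pmpca, the substrate-binding subunit, had 9.86, 9.87, 9.90, 9.72 and 9.78 in STZ, BEZ, 9.28, 9.58 and 9.86 in STZ, SD and 9.69, 9.74 and 9.84 in Con, SD, with a difference of 0.25 in STZ, BEZ vs. STZ, SD (adjusted p = 0.262).

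Chchd4, the oxidoreductase that traps cysteine-rich proteins behind the outer membrane, had 7.68, 7.84, 7.63, 7.55 and 7.64 in STZ, BEZ, 7.29, 7.35 and 7.77 in STZ, SD (lowest, median, highest) and 6.97, 7.26 and 7.69 in Con, SD. It was 0.37 ± 0.11 (SE) higher in STZ, BEZ than in Con, SD (limma adjusted p = 0.0894), and this call was lost in 12 of 18 fits that left out 1 array (those without Con, SD replicate 1, 2, 3, 5 or 7, STZ, SD replicate 4 or 5, or any STZ, BEZ replicate), at an adjusted p of up to 0.243. Gfer, the sulfhydryl oxidase that regenerates Chchd4, had 8.30, 8.24, 8.38, 8.12 and 8.21 in STZ, BEZ, 7.50, 7.91 and 8.27 in STZ, SD and 7.81, 8.11 and 8.35 in Con, SD. Its largest difference was 0.37 in STZ, BEZ vs. STZ, SD (adjusted p = 0.312).

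Related genes were also compared within arrays, as the log2 ratio of 7 pairs in 3 comparisons (two-sided exact permutation tests, adjusted over 21 tests). Grpel1 over Grpel2 was 1.03 to 1.34 in STZ, BEZ, 0.01 to 0.97 in STZ, SD and 0.30 to 1.06 in Con, SD. The ratio was 0.63 higher in STZ, BEZ than in STZ, SD (exact p = 0.00433, adjusted p = 0.0909) and 0.44 higher than in Con, SD (exact p = 0.0101, adjusted p = 0.0909). Of the exchange factors, then, Grpel1 differed more between STZ, BEZ and each other group than Grpel2 did.

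Pmpca over Pmpcb was lower in STZ, BEZ, at -0.11 to 0.02, against -0.08 to 0.49 in STZ, SD (difference -0.27, exact p = 0.0216, adjusted p = 0.0909) and -0.03 to 0.76 in Con, SD (-0.25, exact p = 0.0202, adjusted p = 0.0909). Chchd4 over Gfer was -0.71 to -0.08 in STZ, SD and -1.14 to -0.57 in Con, SD (difference 0.34, exact p = 0.0198, adjusted p = 0.0909). The other 16 tests, on Hspd1 over Hspe1, Timm17a over Timm17b, Tomm40 over Tomm40l, Timm8a1 over Timm8b and the remaining comparisons of these 3 pairs, did not pass. After quantile normalization only the Grpel1 over Grpel2 ratio passed, against STZ, SD and against Con, SD.

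**Figure D4:**
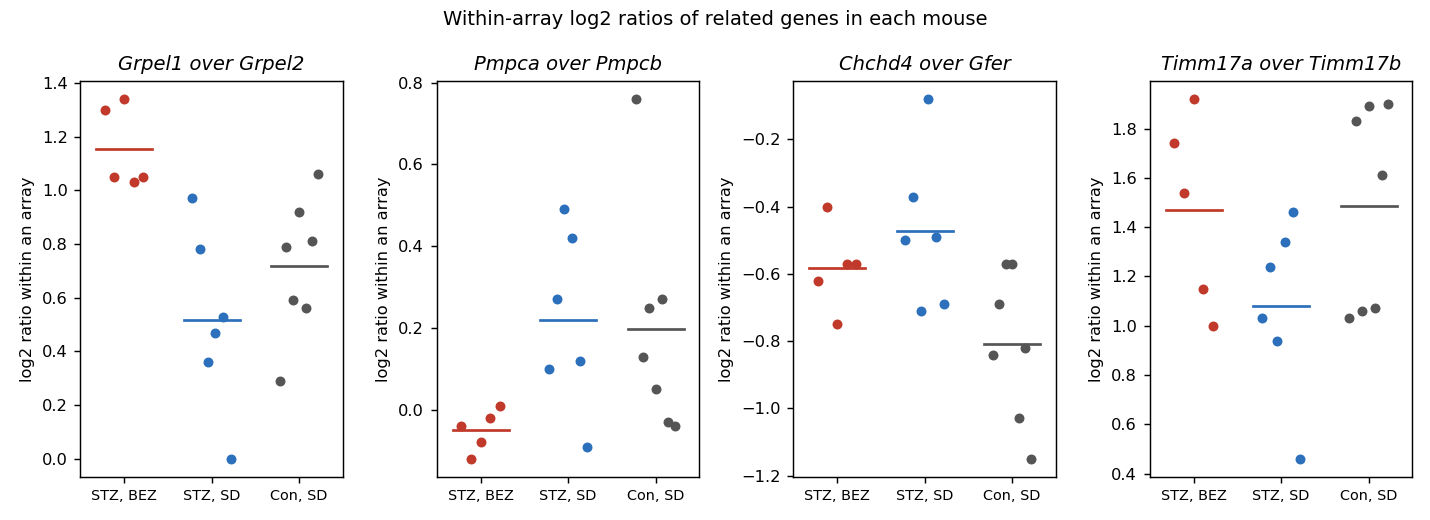
Log2 ratio within an array (y axis) for Grpel1 over Grpel2, Pmpca over Pmpcb, Chchd4 over Gfer and Timm17a over Timm17b in each mouse (points) with group means (lines) in STZ, BEZ, STZ, SD and Con, SD. Grpel1 over Grpel2 is at 1.03 or above in STZ, BEZ and at 0.97 or below in STZ, SD.

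The tissue markers bear on these comparisons as follows. Without the 5 arrays with raised pancreas markers, which left STZ, BEZ replicate 5, the array with the highest liver markers, as the single one of its group, the median log2 difference of the 35 genes was 0.19 against STZ, SD and 0.15 against Con, SD, and no gene was called in these 2 comparisons (2 and 7 at an unadjusted p under 0.05 in limma). The spread of this single array is taken from the other groups. Without STZ, BEZ replicate 5, 6 genes were called in STZ, BEZ vs. Con, SD and 0 by limma in STZ, BEZ vs. STZ, SD, where 17 had an unadjusted p under 0.05. With the means of pancreas, epididymis and testis, and white adipocyte markers as covariates, the median in STZ, BEZ vs. STZ, SD was 0.07 and no gene was called by limma, with 1 at an unadjusted p under 0.05. Timm50 then differed by 0.22 (adjusted p = 0.862), Pam16 by 0.21 (adjusted p = 0.825) and Grpel1 by 0.34 (adjusted p = 0.811), while 9 genes were still called in STZ, BEZ vs. Con, SD. All 13 white adipocyte markers themselves had an unadjusted p under 0.05 (limma) in STZ, BEZ vs. STZ, SD. In this fit, tissue make-up and a response of these markers to BEZ cannot be told apart. With pancreas, epididymis and testis markers alone as covariates, 10 genes were called higher in STZ, BEZ vs. STZ, SD. The shares of all genes called in these fits are not given, so the counts alone do not set the import genes apart.

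Some probe sets need a caution. Identifiers on this array run along the chromosomes: for 99.8% of 18859 genes with a single probe set, the neighbouring identifiers belong to genes of the same chromosome. The chosen probe sets of 7 genes sit among genes of another chromosome (Hspd1, Hspe1, Pam16, Timm23, Timm8a1, Tomm20 and Tomm22), and the files hold no probe positions. For all of these but Tomm22 a second probe set lies among genes of the right chromosome. With those, the log2 difference between STZ, BEZ and Con, SD was 0.75 for Hspd1 (limma adjusted p = 0.0546) and 0.43 for Hspe1 (adjusted p = 0.0228), and Pam16 differed by 0.34 in STZ, BEZ vs. STZ, SD (adjusted p = 0.0765) and by -0.27 in STZ, SD vs. Con, SD (adjusted p = 0.0322). Tomm20 gave 0.22 in STZ, BEZ vs. Con, SD and was no longer called (adjusted p = 0.143). For Timm23 the chosen probe set and the one with the highest mean among genes of the right chromosome held identical values on all 18 arrays. Its further probe sets were not identical to the chosen one (r = 0.98 and 0.976).

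**Figure D5:**
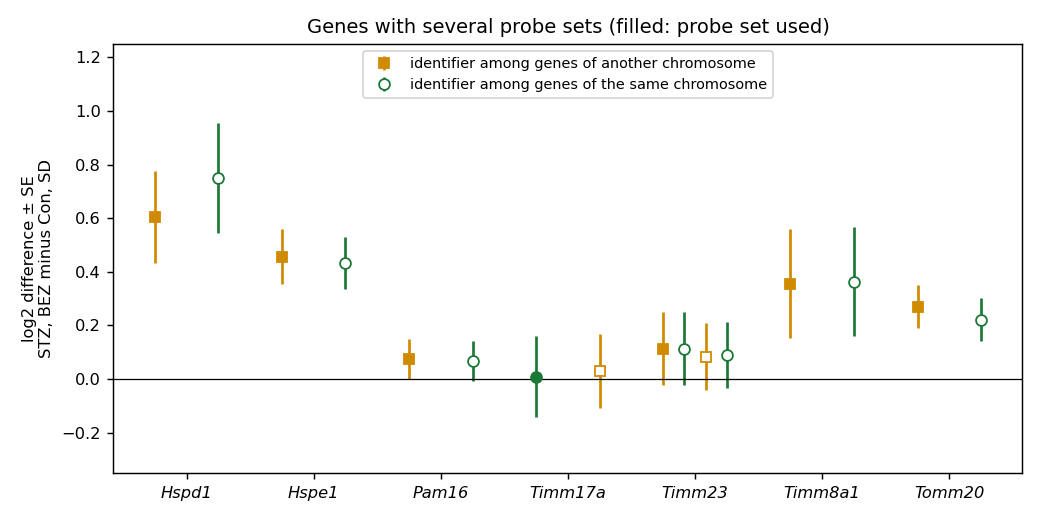
Log2 difference between STZ, BEZ and Con, SD with its standard error (y axis) for every probe set of the 7 genes with several (x axis); filled symbols are the probe sets used, squares have identifiers among genes of another chromosome. Hspd1 had 0.60 and 0.75, Hspe1 0.46 and 0.43, and Tomm20 0.27 and 0.22.

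Neighbouring parts of the mitochondrial system were read in the same fit, and their counts stand against 0.707% of all genes called in STZ, BEZ vs. STZ, SD, 5.95% in STZ, BEZ vs. Con, SD and 10.3% in STZ, SD vs. Con, SD. Of 10 measured genes of the sorting and assembly machinery and the cristae organising system, 2 were called higher in STZ, BEZ vs. STZ, SD (Chchd3 0.56 and Chchd6 0.42) and 3 in STZ, BEZ vs. Con, SD. Among these, Samm50, which inserts barrel proteins such as Tomm40 into the outer membrane, was 0.95 higher than in Con, SD (limma adjusted p = 0.00351), and 0.45 higher in STZ, SD than in Con, SD. In that comparison, Mtx3 was called higher (0.40) and Mtx2 lower (-0.42). Of 9 other import genes, Dnajc15, a paralog of Dnajc19, was 0.74 higher in STZ, BEZ than in STZ, SD (adjusted p = 0.0408) and 0.72 higher than in Con, SD, and Aifm1, which binds Chchd4, was 0.52 higher than in Con, SD.

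Genes of proteins that travel through these routes were also read. Of 13 measured matrix and carrier proteins, 4 were called higher in STZ, BEZ vs. STZ, SD, among them Slc25a20, the carnitine carrier (1.21 ± 0.26, SE; limma adjusted p = 0.0642), and Cs, citrate synthase (0.92), and 7 were called higher in STZ, BEZ vs. Con, SD. Most of 9 measured intermembrane space proteins have the cysteine pairs that Chchd4 oxidises. Of these 9, 3 were higher in STZ, BEZ vs. STZ, SD (Cox6b1, Cox19 and Ndufa8). Chchd10 was 2.25 ± 0.26 higher in STZ, BEZ and 1.17 ± 0.24 higher in STZ, SD than in Con, SD. Of the 9, 2 were higher in STZ, SD than in Con, SD and 3 lower, with Ndufb7 and Ndufa8 among those lower.

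Of 13 measured mitochondrial quality control genes, 9 were called higher in STZ, BEZ vs. Con, SD, among them Clpx, the unfoldase of a matrix protease (0.65), Htra2 (0.55) and Dnaja3, a matrix cochaperone (0.49). Of the same 13, 3 were higher in STZ, SD than in Con, SD, and none was called by limma between STZ, BEZ and STZ, SD, with 6 at an unadjusted p under 0.05. Of 14 regulators of mitochondrial biogenesis, 4 were higher in STZ, BEZ than in Con, SD, and 3 were higher in STZ, SD than in Con, SD. Ppargc1a, the coactivator PGC1α, was 1.58 ± 0.18 (SE) higher in STZ, BEZ and 1.27 ± 0.17 higher in STZ, SD than in Con, SD (limma adjusted p = 0.00106 and 0.00514). Of 11 mitochondrial stress genes only Asns was called, which was higher than in Con, SD by 0.95 in STZ, BEZ and by 0.75 in STZ, SD. Of 10 cytosolic chaperones, only Stip1 was called, lower in STZ, SD vs. Con, SD (-0.25). Single calls in lists of this size are near the shares of all genes called relative to Con, SD. The mean log2 signal of the cytosolic chaperones was 9.11 to 9.27 in STZ, BEZ, 8.67 to 9.41 in STZ, SD and 9.30 to 9.48 in Con, SD, so that STZ, BEZ lay below Con, SD without overlap.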

How the data were processed

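RNA of visceral fat was hybridised to Affymetrix Mouse Gene 1.0 ST arrays, 1 per mouse. Per the labels, the authors' processing used RMA and Affymetrix Expression Console 1.2. They deposited log2 signals for 35556 probe sets, and array medians were 6.76 to 6.87. Of 21789 probe sets with a single symbol, the one with the highest mean was kept per gene, giving 19938 genes. A single limma fit (version 3.58.1, under R 4.3.3) covered all 18 arrays, with 15 residual and 2.44 prior degrees of freedom, and genes were called at a Benjamini-Hochberg adjusted p under 0.10, the level that the paper used with SAM. On simulated data with 200 changed genes of 19938, a log2 change of 1 was recovered in 88%, 93% and 87% for STZ, SD vs. Con, SD, STZ, BEZ vs. STZ, SD and STZ, BEZ vs. Con, SD. False calls were 13 of 197, 18 of 209 and 13 of 198. Smaller changes were not simulated, and the largest difference among the 35 genes was 0.87, so recovery at their size is not known. Values were drawn independently for each gene, without the tissue differences of these arrays. Single ratios were compared by exact permutation with scipy 1.17.1 in Python 3.11.15. The number of arrays limits the precision.

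The genes, the 18 lists (217 genes, 198 measured) and the tests were chosen with earlier results of these data known. Described in full were genes called in any comparison (at most 10 per comparison, or the 5 of smallest p where fewer were called), both genes of a ratio that passed, and Tomm20, Tomm40, Timm23, Hspa9, Hspd1 and Hspe1, 19 in all. From each list up to 3 called genes per comparison were named. Alternatives were an adjusted p under 0.05, all probe sets, means of probe sets, a mean log2 signal of at least 6, quantile normalization, equal array medians, a variance trend, array weights, only 2 groups, a replicate block, marker covariates, SAM with 100 permutations and each array left out. Probe sets by chromosome and fits without 5 arrays with raised pancreas markers (a list mean above 8) were added after seeing the data. The paper's methods give another STZ dose, age and controls than the labels, and the labels are followed here.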

Additional observations from a re-analysis of the deposited data

Results flagged for a closer look

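In groups of 4 to 10 arrays, 4 of 105 tests of an array far from its group, by the gap to the nearest other array, passed Dixon's limit, and chance alone marks about 1 in 20 groups. STZ, SD replicate 1 had the highest signal of Chchd4 (7.77, against 7.29 to 7.42 on the other STZ, SD arrays) and of Timm44 (8.34, against 7.80 to 7.98). This array also had the highest mean of the 35 genes in its group (8.89). STZ, BEZ replicate 2 had 9.20 for Dnajc19, against 8.89 to 8.92 on the other STZ, BEZ arrays. Con, SD replicate 5 had 7.83 for Tomm20l, against 6.27 to 6.53 on the other Con, SD arrays, and the epididymis and testis markers of that array averaged 11.05, the highest of all arrays. The part of these markers in the Tomm20l value was not tested.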

How the results depend on the processing

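Among 1767 recomputed differences of the 19 genes described in full, 1599 stayed on their side of the threshold. Of these 1599, 38 were uncalled values that changed sign. A call was lost in 132 and gained in 36, and none of the called ones reversed. In STZ, SD vs. Con, SD, 4 genes were called, against 2 with equal array medians, 8 with array weights, 2 with only the arrays compared, 2 with 3 marker covariates, 1 without the arrays with raised pancreas markers and 2 at an adjusted p under 0.05. Between STZ, BEZ and STZ, SD, 3 were called, against 1, 7, 0, 0 and 0 under the first 5 of these (16, 1 and 2 at an unadjusted p under 0.05 in the last 3) and 0 at the stricter p, 10 with pancreas, epididymis and testis covariates and 7 by SAM. The median log2 difference was 0.07 with 3 covariates. In STZ, BEZ vs. Con, SD, 10 were called, against 16 with array weights, 0 without the arrays with raised pancreas markers (1 STZ, BEZ array left), 6 at an adjusted p under 0.05 and 17 by SAM. The cause of these shifts was not tested. Shares of all genes called under each alternative, also with 1 array left out, are not given. A higher or lower count is therefore not a result about the import genes alone.

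Leaving out 1 array gave 2 to 11 called genes, 0 to 9 and 6 to 12 in the same order of comparisons, with medians of -0.10 to -0.05, 0.22 to 0.31 and 0.12 to 0.18. In STZ, SD vs. Con, SD the extremes were 2 without Con, SD replicate 7 or STZ, SD replicate 2 and 11 without STZ, SD replicate 3. In STZ, BEZ vs. STZ, SD, 9 were called without STZ, SD replicate 1, 1 without Con, SD replicate 2 or STZ, SD replicate 3, and 0 without STZ, SD replicate 2, 4 or 6 or any STZ, BEZ replicate. In STZ, BEZ vs. Con, SD, 6 were called without STZ, BEZ replicate 2 or 5. Called without each of the 18 arrays were Pam16 and Timm21 in STZ, SD vs. Con, SD, and Grpel1, Hspa9, Hspe1, Timm21, Timm44 and Timm9 in STZ, BEZ vs. Con, SD. In STZ, BEZ vs. STZ, SD, each of the 3 calls was lost in some of these fits. Of the ratios, 0 to 1, 0 to 2 and 0 to 2 passed, and 0, 1 and 1 after quantile normalization, against 1, 2 and 2 otherwise. The Hspd1 and Hspe1 correlation stayed between 0.762 and 0.833.

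Replicate numbers showed no consistent pairing of the mice. Deviations of 16 same-numbered pairs correlated between -0.357 and 0.70, over 0.1 in 2, and 2 of 18 arrays correlated best with their own number. The pair at 0.70, replicate 3 of Con, SD and of STZ, SD, had high means of epididymis and testis markers on both arrays (10.60 and 10.76). What the numbers stand for was not tested. With the number as a replicate block, 0, 0 and 5 genes were called (10, 14 and 14 at an unadjusted p under 0.05 in limma).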
